A study of Mus musculus with 6 samples.

Results

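Replication-dependent clustered histone genes are the genes of the Hist1 to Hist4 clusters, and in the mouse annotation used here 70 genes carry such a symbol (6 of H1, 20 of H2A, 19 of H2B, 12 of H3 and 13 of H4). Members were found by their symbol, of the form Hist1h2bp, and their probes by the RefSeq accession that the array design gives for each probe. Of these 70 genes, 48 had at least 1 named probe (52 probes in all), and 47 were tested because their probe passed the background flag throughout the complete arrays of WT or of IG27 cells, among 14894 genes tested of 22911 genes named. Another 22 members had no probe named through an accession, so no value is given for them. The last member, Hist2h2ab, was well above background on 1 of 3 WT arrays and on neither complete IG27 array, and it was not tested.

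The samples were OS3 cells, immortalized glial cells that carry SV40, were derived from newborn C3H/HeN mice (C3H, male and brain in the labels) and resemble bipotential glial progenitors. WT cells carried the empty vector, and IG27 cells carried a plasmid for the histone variant H3.3 with lysine 27 changed to methionine (H3.3K27M), a mutation known from diffuse midline glioma. Each group had 3 samples, all cultured for 2 days, and each sample was hybridized to its own single-color Agilent mouse array on 1 slide. The paper states that several clones were obtained from transfected cells by drug selection. A difference between selected lines therefore cannot be told apart from an effect of H3.3K27M. The sample titles number the replicates without naming a clone or a transfection, so the tests measure the spread between these samples only. RNA was taken from whole cultures, so a smaller share of dividing cells and less RNA per cell cannot be told apart.

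Clustered histone genes encode the histones that package newly made DNA, and their mRNA is known to build up in S phase and to be destroyed when replication stops. Most of these mRNAs end in a stem-loop bound by SLBP in place of a poly(A) tail, and they are transcribed at nuclear bodies organized by NPAT. The labeling kits named in the sources prime on poly(A) tails, so a signal for such a gene is a reading of the RNA that this labeling can reach. Members of a class are also close to each other in sequence, the sequences of the probes were not used here, and how much each probe reads of its relatives was not tested.

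Promoters of 7 members that stand for the patterns described below are shown as the 250 bases before the annotated start, from RefSeq on GRCm38.p6. They are Hist1h1c, which was higher in IG27 cells, and Hist1h1d, which was lower (chr13:23738557-23738806 and chr13:23554782-23555031, both plus strand). Next are Hist1h2bp, which rose (chr13:21787238-21787487, plus strand), and Hist2h2bb, which fell (chr3:96269450-96269699, plus strand). The others are Hist1h3g (chr13:23535168-23535417, plus strand) and Hist1h4i (chr13:22041363-22041612, minus strand), which rose, and Hist1h4d (chr13:23581318-23581567, plus strand), which was slightly lower. Capitals mark matches on either strand to 5 motifs of histone promoters. The TATA box, near which transcription starts, was searched as TATAAA. The box that the factor NF-Y binds was searched as CCAAT and is called the CCAAT box below. The octamer known from H2B promoters was searched as ATTTGCAT. The AC box of H1 promoters was searched as AAACACA. The core of site II, an element of H4 promoters, was searched as GGTCCG. No marked matches overlap in these windows.
Hist1h1c: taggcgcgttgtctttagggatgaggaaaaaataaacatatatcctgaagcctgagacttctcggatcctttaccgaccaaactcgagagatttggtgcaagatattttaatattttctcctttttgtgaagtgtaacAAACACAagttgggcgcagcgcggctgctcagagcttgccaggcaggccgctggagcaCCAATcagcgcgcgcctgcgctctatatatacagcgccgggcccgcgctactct
Hist1h1d: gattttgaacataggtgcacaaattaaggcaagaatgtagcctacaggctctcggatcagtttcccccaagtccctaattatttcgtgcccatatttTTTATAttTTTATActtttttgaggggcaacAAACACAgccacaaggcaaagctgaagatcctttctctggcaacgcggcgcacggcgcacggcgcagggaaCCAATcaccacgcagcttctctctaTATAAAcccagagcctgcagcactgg
Hist1h2bp: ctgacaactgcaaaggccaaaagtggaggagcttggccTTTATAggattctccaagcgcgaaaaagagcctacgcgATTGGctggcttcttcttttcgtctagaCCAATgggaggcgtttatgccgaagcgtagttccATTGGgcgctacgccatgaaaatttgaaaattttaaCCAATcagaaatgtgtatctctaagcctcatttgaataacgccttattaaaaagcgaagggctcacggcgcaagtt
Hist2h2bb: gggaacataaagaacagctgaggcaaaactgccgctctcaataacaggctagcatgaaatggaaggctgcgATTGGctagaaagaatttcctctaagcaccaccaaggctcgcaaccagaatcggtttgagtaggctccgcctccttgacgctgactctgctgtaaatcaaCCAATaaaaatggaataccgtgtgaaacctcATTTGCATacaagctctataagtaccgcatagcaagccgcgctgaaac
Hist1h3g: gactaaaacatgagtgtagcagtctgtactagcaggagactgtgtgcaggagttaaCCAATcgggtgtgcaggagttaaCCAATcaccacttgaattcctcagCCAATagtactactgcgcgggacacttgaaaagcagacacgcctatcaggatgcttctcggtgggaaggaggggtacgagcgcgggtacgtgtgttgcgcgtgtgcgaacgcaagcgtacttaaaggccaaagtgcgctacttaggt
Hist1h4i: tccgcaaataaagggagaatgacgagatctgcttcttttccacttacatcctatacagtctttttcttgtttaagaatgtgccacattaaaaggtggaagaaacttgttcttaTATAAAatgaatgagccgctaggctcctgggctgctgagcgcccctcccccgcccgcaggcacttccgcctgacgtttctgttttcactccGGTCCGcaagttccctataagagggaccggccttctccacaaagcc
Hist1h4d: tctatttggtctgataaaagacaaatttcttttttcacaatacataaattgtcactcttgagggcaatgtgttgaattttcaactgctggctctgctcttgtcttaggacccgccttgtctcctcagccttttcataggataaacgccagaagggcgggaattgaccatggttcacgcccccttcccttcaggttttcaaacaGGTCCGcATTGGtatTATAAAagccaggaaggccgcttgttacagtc

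Values below are normalized log2 intensities, the log2 of the processed signal of a probe minus the 75th percentile of its array, and "called" means an adjusted p under 0.05 from limma (two-sided, Benjamini-Hochberg adjustment over all genes tested). Across the genome IG27 and WT cells differed widely. Of all genes tested 70.5% were called, 30.5% higher and 40.0% lower in IG27 cells, and 75.7% had arrays that did not overlap between the groups. Among the clustered histone genes 28 of 47 (59.6%) were called, 22 higher and 6 lower, and the arrays of 30 did not overlap. At an unadjusted p of at most 0.05 the count of members was also 28, against 72.9% of all genes. Their median log2 fold change was 0.15, against -0.07 over all genes tested. A change of at least 1.5-fold was called for 19 of the members and for 40.8% of all genes. The counts differed between the histone classes, as the values on each array show.

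**Figure D1:**
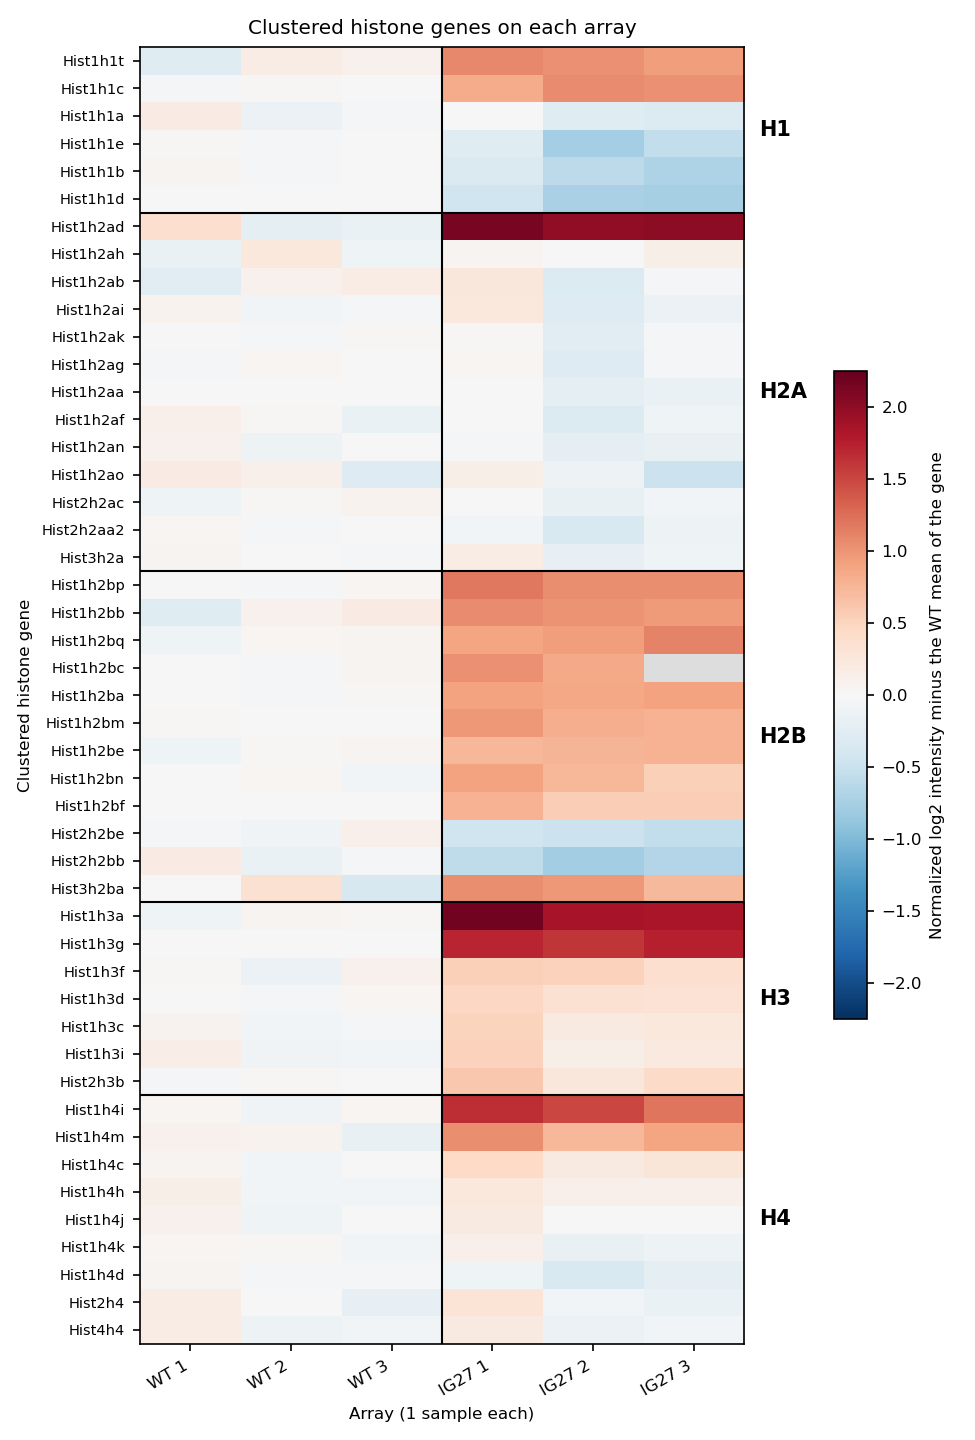
Normalized log2 intensity of each of the 47 clustered histone genes tested (rows, grouped by class) on each of the 6 arrays (columns), minus the WT mean of the same gene; the gray cell is a spot left out for an outlier flag. The H2B rows of cluster Hist1 are higher on all IG27 arrays with a value, most H2A rows stay near 0, and H1 rows go both ways.

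Signal on the arrays was read without saturation, and 58.8% to 61.2% of probes were well above background on the 5 arrays with complete scanner output. IG27 replicate 2 has complete values but no background flags. IG27 replicate 1 stood apart among the clustered histone genes: it was the highest IG27 array for 41 of the 46 members with all values (89.1%), against 46.4% of all genes. Among the WT arrays replicate 1 was the highest for 25 of the 46 (54.3%), against 34.4% of all genes. Relative to the WT mean, the median over all members was 0.31 on IG27 replicate 1, 0.11 on replicate 2 and 0.12 on replicate 3. Without IG27 replicate 1, 22 members were higher and 7 lower, and without WT replicate 1, 24 were higher and 5 lower. WT replicates 1 and 3 lay in the other row of the slide from the remaining arrays, and with the row as a block, which sets IG27 cells against WT replicate 2 alone, 19 members were higher and 4 lower. Markers of several cell types differed between the groups. All 10 astrocyte and radial glia markers were tested, with 3 called higher and 5 called lower, and their summed level, in units of each array's 75th percentile, ran from 294 to 309 in WT and from 218 to 231 in IG27 cells. Slc1a3 and Fabp7 were not well above background on any WT array and were at least 20.6-fold and 110-fold higher in IG27 cells. Of 9 oligodendrocyte lineage markers, all tested, 4 were higher (such as Pdgfra, 2.36) and 3 lower (such as Cnp, -1.52), with sums of 109 to 117 in WT and 88.1 to 91.4 in IG27 cells.

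Markers of cell types other than glia also moved. Of 5 neuronal markers 3 were tested. Map2 was higher (8.03 as fitted, with signal above background on only 1 of 3 WT arrays), Tubb3 lower (-2.63) and Snap25 not called (-0.11). Rbfox3 and Syt1 were not above background in either group. The 5 neuronal markers had sums of 17.5 to 19.9 in WT and 9.97 to 11 in IG27 cells. Of 5 microglial markers 4 were tested, with Aif1 and P2ry12 higher, Csf1r and Tmem119 lower and Cx3cr1 not above background (sums of 4.93 to 5.30 and 2.62 to 2.93). Like Map2, Aif1 was above background on only 1 of 3 WT arrays. Of 3 endothelial markers 2 were tested. Kdr, not above background in WT cells, was at least 134.8-fold higher, Pecam1 was lower, and Cdh5 was not above background (sums of 0.165 to 0.182 and 2.59 to 2.66). Of 5 fibroblast markers 3 were tested, with Dcn at least 3.32-fold higher from below background, Col1a1 and Pdgfrb lower and Lum not above background (sums of 126 to 129 and 64.3 to 69.6). The part of these differences in the histone results was not tested.

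H2B, which pairs with H2A in the nucleosome, was the class that changed throughout. All 12 H2B genes tested were called, against 70.5% of all genes, and the class median was 0.87. Of the 12, 10 rose and 2 fell, while called rises made up 30.5% of all genes and called falls 40.0%. The 9 genes tested of cluster Hist1 rose between 1.55-fold and 2.13-fold (log2 0.63 to 1.09). Hist1h2bp, whose promoter is printed above, read -2.84, -2.87 and -2.79 in WT replicates 1 to 3 and -1.64, -1.79 and -1.79 in IG27 replicates 1 to 3. Every IG27 array was above every WT array, and the log2 fold change was 1.09 (standard error 0.06, limma adjusted p = 1.27e-05). For Hist1h2bb the WT arrays gave 4.20, 4.57 and 4.67 and the IG27 arrays 5.54, 5.49 and 5.44. The groups did not overlap, with a log2 fold change of 1.01 (standard error 0.13, limma adjusted p = 0.000491), and a dimmer probe of this gene gave 0.96. Hist1h2bq read -0.82, -0.68 and -0.66 in WT cells and 0.18, 0.22 and 0.39 in IG27 cells, again without overlap (log2 fold change 0.98, standard error 0.08, limma adjusted p = 6.18e-05). Hist1h2bc read 5.11, 5.07 and 5.18 in WT cells and 6.15 and 5.98 in IG27 replicates 1 and 2, its spot on replicate 3 having an outlier flag. Its fit therefore used 5 arrays and gave a log2 fold change of 0.94 (standard error 0.08, limma adjusted p = 0.000185). The risen genes Hist1h2be, Hist1h2bp, Hist1h2bc and Hist1h2bq span 37455, 14079, 8282 and 3788 annotated bases. Hist1h2ba, Hist1h2bb, Hist1h2bf, Hist1h2bm and Hist1h2bn, which also rose, span 432 to 490, and the H2A genes tested 448 to 596. The H2B genes of the other clusters span 2667 (Hist2h2be) and 493 (Hist2h2bb), which fell, and 462 (Hist3h2ba), which rose. Whether the longer genes give more RNA that the labeling reaches was not tested.

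Outside cluster Hist1 the H2B genes did not share 1 direction. Both H2B genes of cluster Hist2 were lower in IG27 cells. Hist2h2bb read 2.90, 2.56 and 2.68 in WT cells and 2.15, 1.94 and 2.05 in IG27 cells. The lowest WT array was above the highest IG27 array, and the log2 fold change was -0.67 (standard error 0.10, limma adjusted p = 0.00138). Hist2h2be, 1 of the cluster genes known to also give polyadenylated mRNA, read 1.76, 1.72 and 1.91 in WT cells and 1.35, 1.31 and 1.25 in IG27 cells. Its brighter probe gave a log2 fold change of -0.49 (standard error 0.07, limma adjusted p = 0.000805) and its other probe -0.61, each without overlap. Hist3h2ba of cluster Hist3 was dim, at -3.70, -3.37 and -4.07 in WT cells and -2.67, -2.74 and -2.99 in IG27 cells. It was called higher (log2 fold change 0.91, standard error 0.19, limma adjusted p = 0.0050), and the call was lost with the slide row as a block (0.57).

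H2A stood in contrast. Of 13 H2A genes tested 1 was called, against 70.5% of all genes, and the other 12 had log2 fold changes between -0.17 and 0.06, 11 of them below 0. Their 95% confidence intervals reached from -0.63 at the lowest bound to 0.41 at the highest, so a rise of the size seen for the H2B genes of cluster Hist1 lay outside the interval of each. Signals of 9 of these genes were among the bright ones, with means over 7, and of all 120 genes tested with such signals 35.8% were called. Hist1h2ah read 7.73, 8.13 and 7.79 in WT cells and 7.94, 7.87 and 8.01 in IG27 cells, with fully mixed groups and a log2 fold change of 0.06 (95% interval -0.22 to 0.33, limma adjusted p = 0.678). In cluster Hist2, Hist2h2aa2 read 7.52, 7.45 and 7.47 in WT cells and 7.41, 7.14 and 7.37 in IG27 cells. Its arrays did not overlap, and its log2 fold change of -0.17 missed the threshold (95% interval -0.38 to 0.03, limma adjusted p = 0.108). Hist2h2ac read 7.57, 7.70 and 7.74 in WT cells and 7.67, 7.50 and 7.60 in IG27 cells, which overlapped (log2 fold change -0.08, 95% interval -0.26 to 0.09, limma adjusted p = 0.348). Hist3h2a of cluster Hist3 read 5.83, 5.76 and 5.73 in WT cells and 5.94, 5.60 and 5.68 in IG27 cells, also overlapping (log2 fold change -0.03, 95% interval -0.27 to 0.21, limma adjusted p = 0.782).

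The exception among the H2A genes was Hist1h2ad. Its probe was not well above background on any WT array, where it read -5.63, -6.21 and -6.15, and it read -3.86, -3.99 and -3.98 on the IG27 arrays. Against the lowest signal counted as above background, or the probe's own where higher, the gene was at least 3.43-fold higher in IG27 cells. The fitted log2 fold change of 2.05 rests on WT signals below background, and it was 0.82 with normexp background correction. The probe passed the filter on dim probes through the IG27 arrays alone, so the call carries no weight of its own. With a filter asking for signal on every complete array no H2A gene was called.

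**Figure D2:**
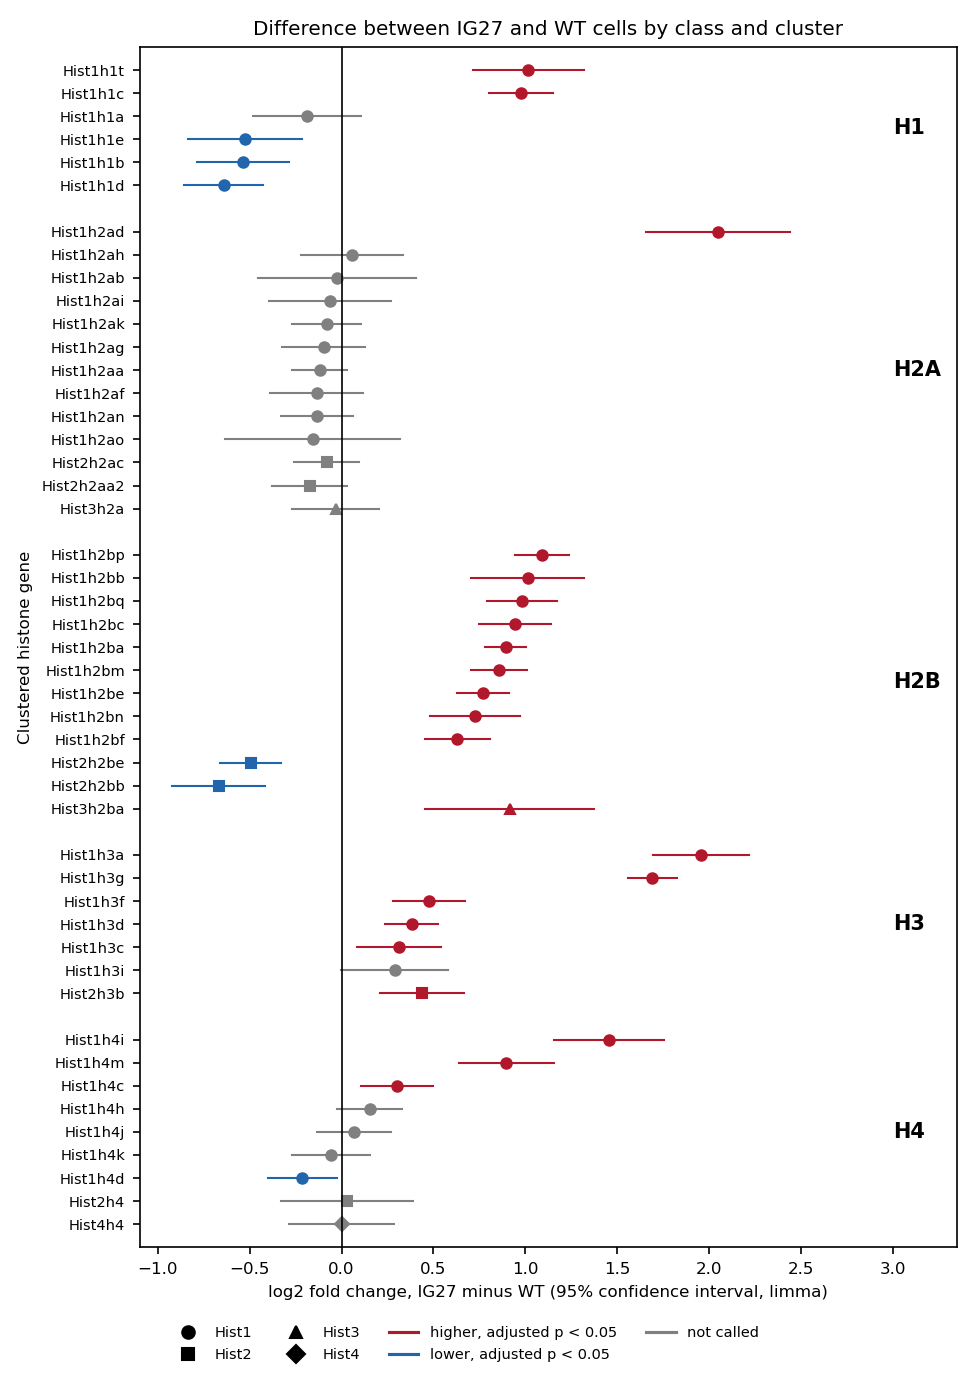
Fitted log2 fold change of IG27 over WT cells with its 95% confidence interval for each of the 47 clustered histone genes tested, grouped by class, with the cluster as the symbol and the call as the color. The 9 H2B genes of cluster Hist1 lie between 0.63 and 1.09, 12 of 13 H2A genes lie between -0.17 and 0.06, and the value of Hist1h2ad rests on WT arrays below background.

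H2A and H2B genes often sit next to each other, many of them head to head around a shared promoter, which allowed the classes to be compared between neighbors on the same arrays. Of 14 such pairs in the annotation, both genes were tested in 7. In 5 of these the H2B gene was called higher and the H2A gene was not called. These calls are the class counts above read pair by pair on the same probes, and they add no separate support. For Hist1h2an and Hist1h2bp, whose 250-base windows share 239 bases, the difference of H2B minus H2A, centered on its WT mean, was -0.11, 0.08 and 0.03 on the WT arrays and 1.22, 1.26 and 1.20 on the IG27 arrays. Every IG27 array was above every WT array. Hist1h2aa and Hist1h2ba encode the variants TH2A and TH2B, best known from testis. The Hist1h2aa probe averaged 7.81 in WT and 7.69 in IG27 cells, in the range of the bright H2A genes above. How much of that signal comes from related H2A genes was not tested. The difference of Hist1h2ba minus Hist1h2aa was -0.002, -0.032 and 0.035 on the WT arrays and 0.92, 1.08 and 1.04 on the IG27 arrays. The change of this difference was 1.14 for Hist1h2ao and Hist1h2bq, 0.81 for Hist1h2ak and Hist1h2bn, and 1.04 for Hist1h2ab and Hist1h2bb, which point in the same direction along the chromosome.

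In the other two pairs the neighbors behaved otherwise. Hist1h2ad and Hist1h2bf were both higher in IG27 cells, the H2A gene from below background, so the change of their difference (-1.42 as fitted) depends on WT signals that were not measured above background. In cluster Hist2, Hist2h2be fell while Hist2h2ac was not called, and the change of their difference was -0.41. All 7 differences separated the groups without overlap, each with p = 0.1 by an exact two-sided permutation test, the smallest that 3 against 3 arrays can give. Taken singly, 75.7% of all genes tested did not overlap either, and the share for other gene pairs was not computed.

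**Figure D3:**
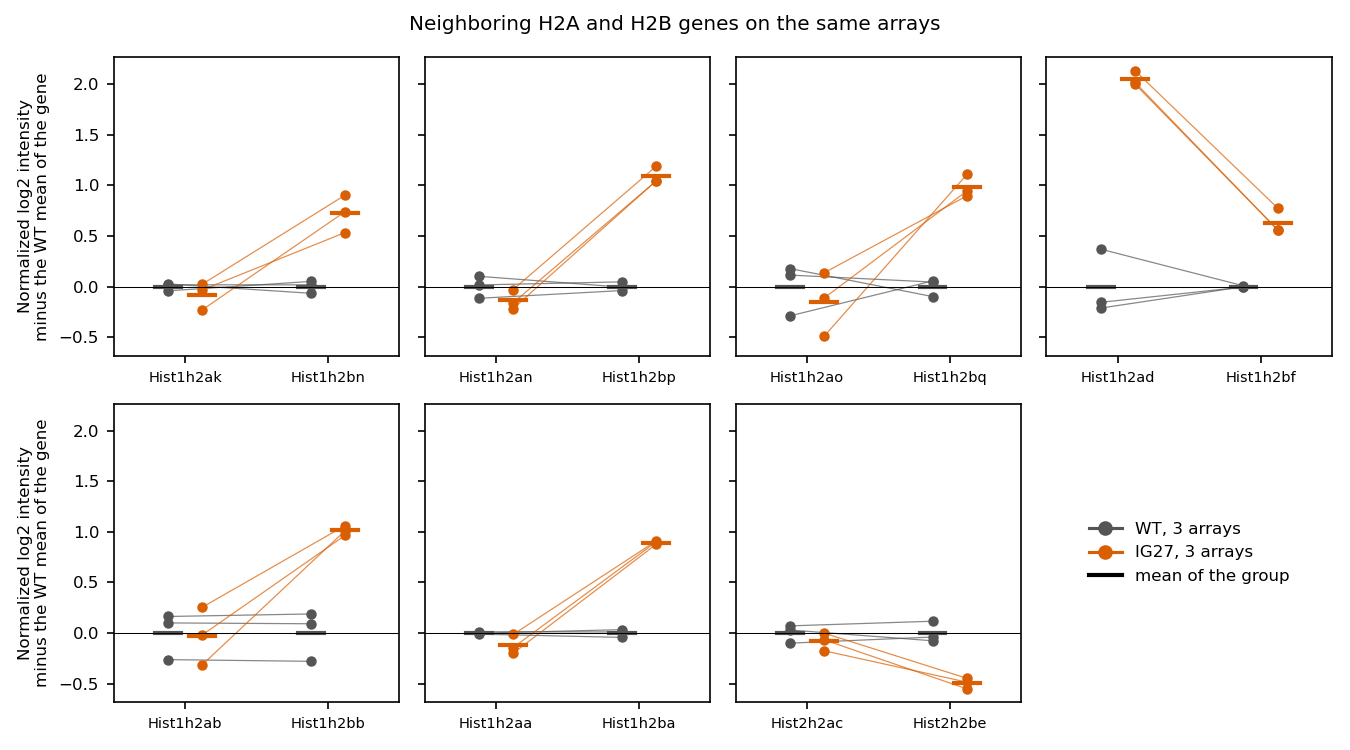
Normalized log2 intensity minus the WT mean of each gene, for the 7 neighboring pairs of H2A (left in each panel) and H2B (right) with both genes tested; points are arrays, lines join values of the same array, and thick bars are group means. IG27 arrays move away from the WT arrays at the H2B gene in all panels, and at the H2A gene by a called amount for Hist1h2ad.

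H3 genes, whose product carries the lysine that is mutated in the plasmid's H3.3, were mostly higher. Of 7 tested, 6 were called higher (85.7% called, against 70.5% of all genes, of which 30.5% were higher), with a class median of 0.44. Hist1h3a read -1.52, -1.36 and -1.40 in WT cells and 0.75, 0.42 and 0.41 in IG27 cells. This was a 3.88-fold rise without overlap (log2 fold change 1.96, standard error 0.11, limma adjusted p = 1.20e-05). Hist1h3g, whose promoter holds 3 CCAAT boxes and none of the other motifs, read 1.26, 1.25 and 1.28 in WT cells and 2.99, 2.87 and 3.01 in IG27 cells. Its rise was 3.23-fold (log2 fold change 1.69, standard error 0.05, limma adjusted p = 1.38e-06), the smallest p among the members. The remaining H3 genes moved less. Hist1h3f read -0.81, -0.97 and -0.74 in WT cells and -0.30, -0.31 and -0.47 in IG27 cells (log2 fold change 0.48, standard error 0.08, limma adjusted p = 0.00210). Hist1h3d read 6.15, 6.11 and 6.20 in WT cells and 6.62, 6.49 and 6.49 in IG27 cells (log2 fold change 0.38, standard error 0.06, limma adjusted p = 0.00145). Neither gene had overlapping groups. Hist2h3b read 2.66, 2.72 and 2.70 in WT cells and 3.31, 2.95 and 3.13 in IG27 cells, without overlap (log2 fold change 0.44, standard error 0.09, limma adjusted p = 0.00612). The call of Hist2h3b was lost with the slide row as a block (0.41), and that of Hist1h3c (0.31) in 4 of 18 alternative settings.

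H4 genes did not share 1 direction. Of 9 tested, 3 were called higher and 1 lower (44.4%, against 70.5% of all genes), with a class median of 0.07. Hist1h4i read 0.56, 0.45 and 0.56 in WT cells and 2.19, 2.03 and 1.72 in IG27 cells. The groups were far apart, and the gene was 2.74-fold higher in IG27 cells (log2 fold change 1.45, standard error 0.12, limma adjusted p = 8.23e-05). Hist1h4m read -1.85, -1.88 and -2.12 in WT cells and -0.90, -1.19 and -1.06 in IG27 cells (log2 fold change 0.90, standard error 0.11, limma adjusted p = 0.000396). Hist1h4c read 0.83, 0.70 and 0.75 in WT cells and 1.20, 0.95 and 1.02 in IG27 cells (log2 fold change 0.30, standard error 0.08, limma adjusted p = 0.0146). Both were higher on every IG27 array than on any WT array. Hist1h4d, at 7.11, 7.02 and 7.01 in WT cells and 6.95, 6.70 and 6.85 in IG27 cells, had the least stable call of all members. Its log2 fold change of -0.21 (standard error 0.08, limma adjusted p = 0.0443) lost its call in 10 of 18 alternative settings and kept its sign in all, and its other probe gave -0.28. Among these settings the 5 complete arrays and the arrays without IG27 replicate 2 are the same fit, counted separately.

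The H4 genes of the smaller clusters were not called. Hist2h4 read 6.08, 5.92 and 5.73 in WT cells and 6.22, 5.84 and 5.76 in IG27 cells (log2 fold change 0.03, 95% interval -0.33 to 0.39, limma adjusted p = 0.864). Hist4h4, the sole member of cluster Hist4, read 4.37, 4.08 and 4.14 in WT cells and 4.39, 4.07 and 4.13 in IG27 cells. Its log2 fold change was 0.00 to 2 decimals (95% interval -0.28 to 0.28, limma adjusted p = 0.998). In both genes replicate 1 was the highest array of either group.

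H1 genes encode the linker histones, which bind the DNA between nucleosomes, and their subtypes went in opposite directions. Of 6 tested, 2 were called higher and 3 lower (83.3%, against 70.5% of all genes), with a median of -0.36. Hist1h1c, which encodes H1.2 and is also known to give polyadenylated mRNA, read 1.45, 1.51 and 1.49 in WT cells and 2.32, 2.54 and 2.51 in IG27 cells (log2 fold change 0.98, standard error 0.07, limma adjusted p = 4.26e-05). Hist1h1t, which encodes the testis subtype H1t, was dim and read -4.28, -3.84 and -3.91 in WT cells and -2.93, -2.99 and -3.07 in IG27 cells (log2 fold change 1.02, standard error 0.12, limma adjusted p = 0.000455). Neither showed overlap between the groups. Of 6 testis markers 3 were tested, and of these Prm2 was higher in IG27 cells (0.46), while Prm1 (0.59) and Tnp1 (-0.13) were not called. Ddx4 and Sycp3, which mark germ cells, were not well above background on any complete array. The summed level of the 6 markers was 0.312 to 0.804 in WT and 0.517 to 0.765 in IG27 cells.

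Hist1h1d, which encodes H1.3, read 1.18, 1.17 and 1.16 in WT cells and 0.72, 0.43 and 0.43 in IG27 cells (log2 fold change -0.64, standard error 0.09, limma adjusted p = 0.000799). Hist1h1b, which encodes H1.5, read 4.96, 4.86 and 4.89 in WT cells and 4.58, 4.31 and 4.21 in IG27 cells (log2 fold change -0.54, standard error 0.10, limma adjusted p = 0.00351). Every WT array exceeded every IG27 array for both genes. Hist1h1e, which encodes H1.4, was also lower (-0.53, limma adjusted p = 0.00995), a call lost with the slide row as a block (-0.48). Hist1h1a, which encodes H1.1, was not called (-0.19, 95% interval -0.48 to 0.10).

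By cluster, Hist1 held 38 of the genes tested, of which 20 were higher and 4 lower (63.2% called). Of all genes 70.5% were called, 30.5% higher and 40.0% lower. In Hist2, 1 of 6 was higher and 2 were lower. In Hist3, 1 of 2 was higher, and the 1 gene of Hist4 was not called. Hist1 lies on chromosome 13, where the genes outside the cluster leaned the other way: 99 of 527 were higher and 252 lower, with a median of -0.21. Hist2 lies on chromosome 3, where the other genes had a median of -0.31.

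Promoters of 62 members were in the RefSeq table, and their motifs differed between the classes. All windows of H1, H2A and H2B genes held a CCAAT box (6 of 6, 18 of 18 and 16 of 16), against 33.8% of 32851 windows of all genes. The octamer was present in 7 of 18 H2A and 7 of 16 H2B windows and in 1.60% of all windows. The AC box was found in 5 of 6 H1 windows, those of the higher Hist1h1c and Hist1h1t and of the lower Hist1h1b, Hist1h1d and Hist1h1e alike, against 6.25% of all. The core of site II was in 9 of 12 H4 windows, among them both Hist1h4i, which rose, and Hist4h4, which was not called, against 6.72% of all. A TATA box in the letters searched was in 4 of 6 H1, 7 of 18 H2A, 8 of 16 H2B, 4 of 10 H3 and 6 of 12 H4 windows and in 12.4% of all. Windows of the 10 head-to-head pairs with both entries share 163 to 248 bases, so the H2A and H2B counts are largely of the same DNA. Hist1h2an, which was not called, and Hist1h2bp, which rose, share nearly all of the window printed above.

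**Figure D4:**
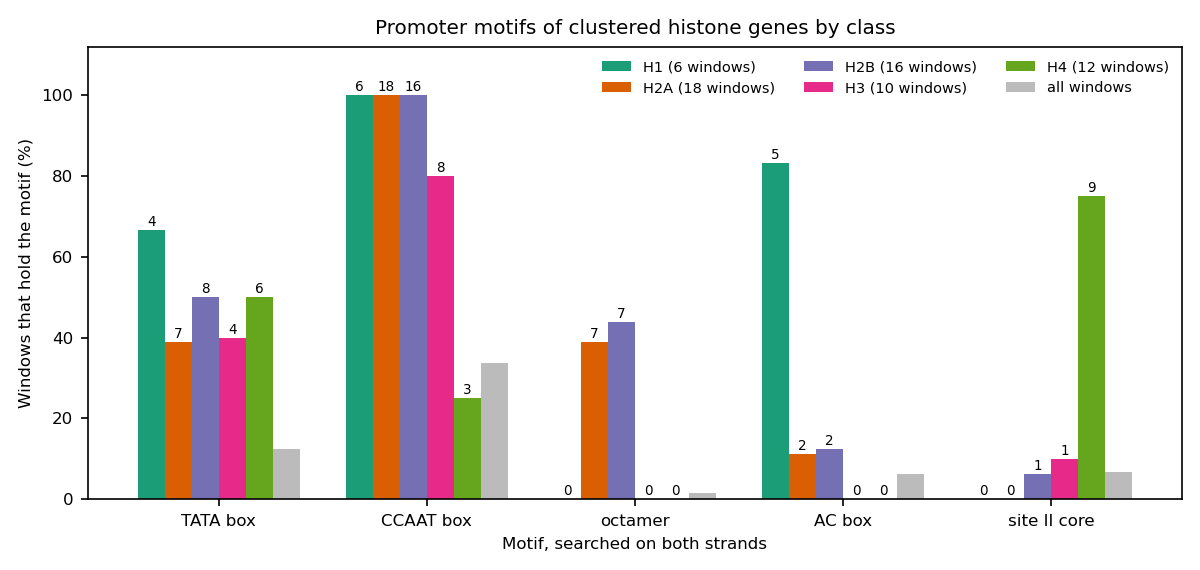
Share of 250-base promoter windows that hold each motif on either strand, by histone class (colored bars, with the number of windows above them) and over all 32851 windows (gray). CCAAT boxes are in all H1, H2A and H2B windows, the octamer only in H2A and H2B windows among the members, and the site II core in 9 of 12 H4 windows.

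The genes that make and handle clustered histone mRNA were examined as a list of 31 regulators, all tested. IG27 cells had 8 of them higher and 17 lower (80.6%, against 70.5% of all genes), with a median of -0.28. Of 7 genes of transcription 1 was higher and 3 were lower. Npat, the organizer of histone gene transcription, read 0.31, 0.34 and 0.43 in WT cells and -0.38, -0.36 and -0.47 in IG27 cells (log2 fold change -0.77, standard error 0.06, limma adjusted p = 4.91e-05). Hinfp, which binds site II of H4 genes, read -0.21, -0.10 and -0.07 in WT cells and -0.40, -0.34 and -0.61 in IG27 cells (log2 fold change -0.33, standard error 0.09, limma adjusted p = 0.0144), a call lost with the slide row as a block. Casp8ap2, the gene of the NPAT-associated factor FLASH, read 1.41, 1.45 and 1.41 in WT cells and 1.68, 1.91 and 1.78 in IG27 cells (log2 fold change 0.36, standard error 0.07, limma adjusted p = 0.00387). None of these 3 genes had overlapping groups.

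Of 14 genes of 3' end processing 5 were higher and 6 lower (78.6%, against 70.5% of all genes). Slbp, the stem-loop binding protein, read 1.90, 1.88 and 1.77 in WT cells and 1.95, 2.12 and 1.94 in IG27 cells. Its groups did not overlap, but its log2 fold change of 0.15 missed the threshold (95% interval -0.02 to 0.33, limma adjusted p = 0.103) and passed it with quantile normalization (0.27). Wdr33, a subunit of the polyadenylation machinery, read 1.36, 1.25 and 1.23 in WT cells and 2.18, 2.10 and 2.13 in IG27 cells (log2 fold change 0.86, standard error 0.06, limma adjusted p = 2.43e-05). Subunits of the U7 particle, which cuts histone pre-mRNA, went in opposite directions, with Lsm10 at 0.36 and Lsm11 at -0.51, both called and both named after their values were seen.

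All 10 genes of translation and decay were called (against 70.5% of all genes), 2 higher and 8 lower, with a median of -0.61. Eri1, an exonuclease that trims the stem-loop, read 1.51, 1.48 and 1.63 in WT cells and 1.0, 0.96 and 0.98 in IG27 cells (log2 fold change -0.56, standard error 0.06, limma adjusted p = 0.000180). Zcchc11 (also Tut4), a uridylyltransferase, read 0.80, 0.71 and 0.72 in WT cells and 1.80, 1.61 and 1.86 in IG27 cells (log2 fold change 1.02, standard error 0.08, limma adjusted p = 4.93e-05). Papd5 (also Tent4b), a noncanonical poly(A) polymerase, read 1.96, 1.67 and 1.78 in WT cells and 0.98, 0.82 and 0.80 in IG27 cells (log2 fold change -0.94, standard error 0.09, limma adjusted p = 0.000162). Each of the 3 separated the groups fully.

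**Figure D5:**
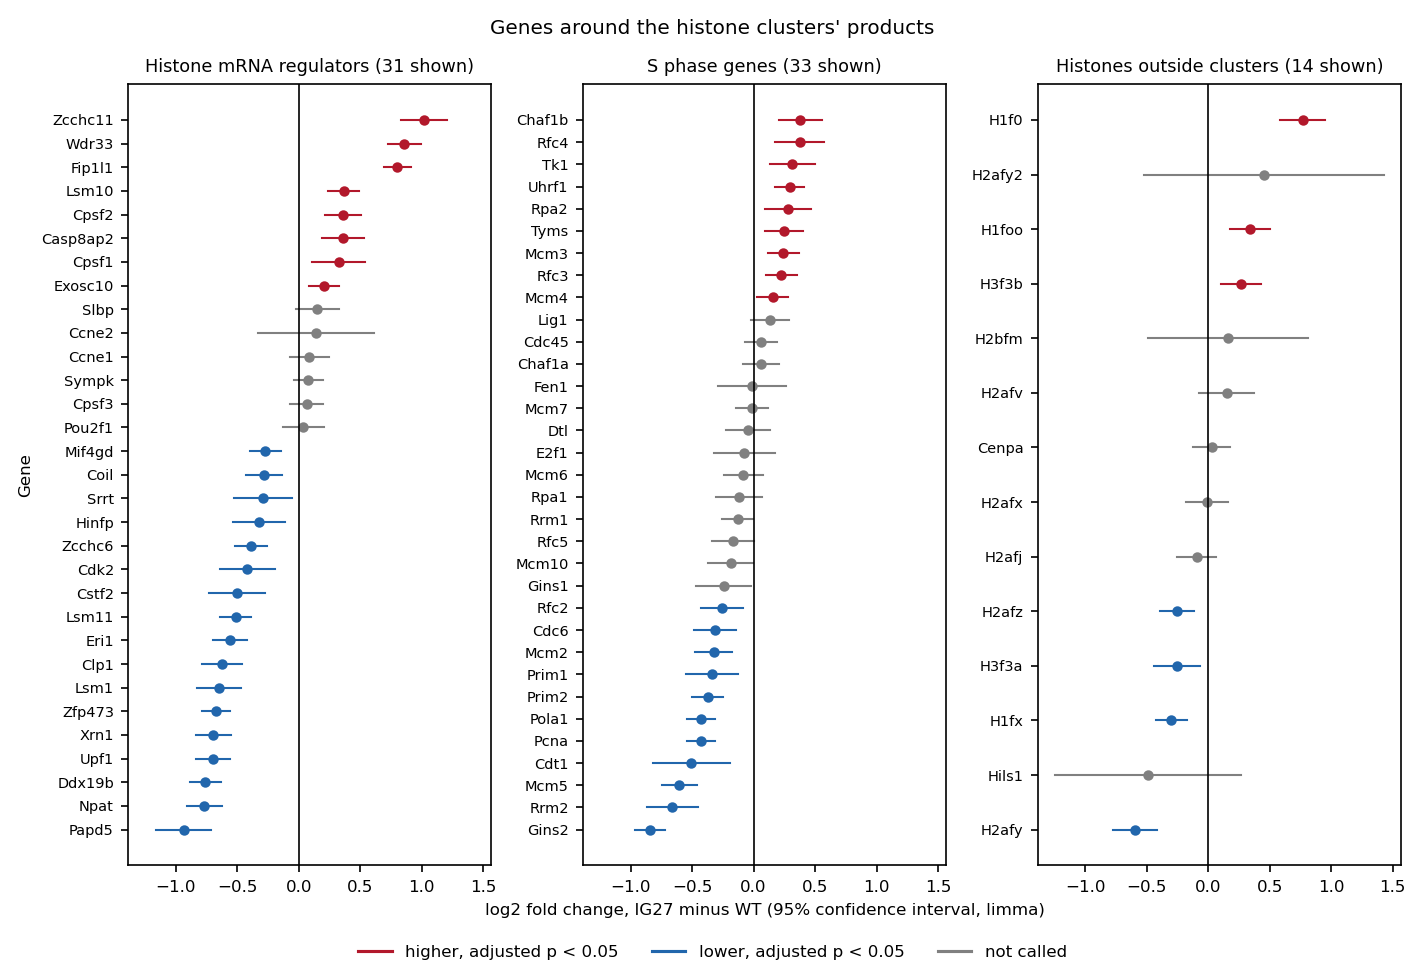
Log2 fold change of IG27 over WT cells with its 95% confidence interval for tested regulators of histone mRNA, S phase genes and histone genes outside the clusters, colored by call, with 1 lower S phase gene not drawn. Each list holds genes called in both directions: 8 higher and 17 lower regulators, 9 higher and 12 lower S phase genes, and 3 higher and 4 lower histone genes.

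Genes of S phase, when the clustered histone genes are transcribed, were called in both directions. Of 34 listed and tested, 9 were higher and 12 lower (61.8% called, against 70.5% of all genes, of which 30.5% were higher and 40.0% lower), with a median of -0.10. Gins2, a subunit of the replicative helicase, read 3.95, 3.84 and 3.87 in WT cells and 3.06, 3.03 and 3.04 in IG27 cells (log2 fold change -0.84, standard error 0.05, limma adjusted p = 1.67e-05). Rrm2, the regulated subunit of ribonucleotide reductase, read 5.35, 5.04 and 5.20 in WT cells and 4.53, 4.52 and 4.55 in IG27 cells (log2 fold change -0.66, standard error 0.09, limma adjusted p = 0.000592). All WT arrays were above all IG27 arrays for both genes.

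Of 16 histone genes outside the clusters, several of which are made throughout the cell cycle or in special cells, 14 were tested. Among these, 3 were higher and 4 lower (7 of 14 called, against 70.5% of all genes). H1f0, the linker histone of resting and differentiated cells, read 0.43, 0.26 and 0.42 in WT cells and 1.03, 1.17 and 1.21 in IG27 cells (log2 fold change 0.77, standard error 0.08, limma adjusted p = 0.000164). H2afy, which encodes macroH2A1, read 4.60, 4.38 and 4.39 in WT cells and 3.87, 3.83 and 3.87 in IG27 cells (log2 fold change -0.60, standard error 0.07, limma adjusted p = 0.000428), a call lost with the mean of its probes (-0.17). H1foo, the oocyte linker histone, read -2.30, -2.42 and -2.51 in WT cells and -2.05, -2.11 and -2.05 in IG27 cells (log2 fold change 0.34, standard error 0.07, limma adjusted p = 0.00401). The groups did not overlap for any of the 3.

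The other variants named here changed by less. H2afx read 5.63, 5.61 and 5.76 in WT cells and 5.76, 5.63 and 5.57 in IG27 cells and was not called (log2 fold change -0.01, 95% interval -0.18 to 0.16). H2afz, which encodes H2A.Z, read 7.47, 7.42 and 7.47 in WT cells and 7.27, 7.11 and 7.20 in IG27 cells (log2 fold change -0.25, standard error 0.06, limma adjusted p = 0.00767), a call lost with the slide row as a block. H3f3b, which also encodes H3.3, read 6.85, 6.71 and 6.89 in WT cells and 7.14, 7.02 and 7.09 in IG27 cells (log2 fold change 0.26, standard error 0.07, limma adjusted p = 0.0112). H3f3a, the gene of the plasmid's histone, read 6.96, 6.70 and 6.85 in WT cells and 6.61, 6.52 and 6.61 in IG27 cells. Its log2 fold change of -0.26 (standard error 0.08, limma adjusted p = 0.0237) lost its call in 9 of 18 alternative settings, the repeated fit named for Hist1h4d counted separately. The sources used here do not say whether its probe reads the plasmid's RNA, so it checks no label.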

How the data were processed

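RNA of 3 WT and 3 IG27 samples was read on single-color Agilent mouse arrays. The authors scanned the slide and read each spot with Feature Extraction, whose deposited processed signal is a background-corrected intensity on a linear scale (version 10.7.3.1 per the file headers, 9.1 per the submitters' processing notes, design annotated on mm9). The labels and the study's methods name different RNA extraction and labeling kits. For IG27 replicate 2 the scanner file ends at 285 spots, so the intensity values of this array came from the deposited value table, which equals the scanner output where both exist (255 of 255 single-spot probes, relative tolerance 1e-04). WT replicates 2 and 3 are exchanged in that table, and their scanner files were taken as labeled.

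Spots with an outlier flag were left out, and log2 intensities minus the 75th percentile of each array were compared in limma 3.58.1 (R 4.3.3) without a block, two-sided, and p-values were adjusted over 14894 genes by the Benjamini-Hochberg method. The brightest probe stood for a gene. Probes were named through RefSeq accessions and a gene table of GRCm38.p6 (32994 of 56605 probes); as the builds differ, that table gave names, chromosomes and neighbors, and promoter coordinates are those of the promoter table. The number of arrays limits the precision.

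Members, lists, the naming rule and the tests were chosen with earlier results of these data known. Values on every array are given for up to 3 called genes with the largest change and the brightest gene of each class, all tested genes of Hist2, Hist3 and Hist4, and set members and the largest changes of each list. The alternatives were 5 complete arrays only, quantile normalization, normexp on the processed signal (offset 50; the mean signals it was planned on are not in the columns used here), the value table for all arrays, dim probes unfiltered or filtered harder, flagged spots included, averaging over the probes of a gene, a variance trend, replicate or slide row as a block, an unadjusted threshold, and each array left out. Of the S phase list, 1 gene that the naming rule selects is counted but not reported here. The steps were tested on simulated data with 50 changed genes at each size of change. Of these, 22% were recovered at a log2 change of 0.3, 64% at 0.6, 84% at 1 and 86% at 2, and 10 unchanged genes were called. Every background flag was set to pass, so the filter was not tested, and far fewer genes changed than were called in these data.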

Additional observations from a re-analysis of the deposited data

How the results depend on the processing

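Over 18 alternative settings 19 to 24 clustered histone genes were higher and 4 to 7 lower in IG27 cells. No call changed sign, and 9 of the 47 members gained or lost a call in some setting. The 5 complete arrays and the arrays without IG27 replicate 2 are the same fit, so the 18 settings hold this fit under both names. The count of lower H4 genes rested on Hist1h4d and fell to 0 with the 5 complete arrays, without a filter on dim probes, with outlier spots kept, with probes of a gene averaged and with the slide row as a block (limma; at an unadjusted p of at most 0.05 the count was 1). Leaving out single arrays gave 0 to 1 lower H4 genes, 0 to 1 lower H2A genes and 26 to 29 called members, and it was 0 for lower H4 genes without WT replicate 1, 2 or 3 and without IG27 replicate 2 or 3. The lower H2A gene was Hist1h2aa without IG27 replicate 1. With a filter asking for signal on every complete array, 0 H2A genes were higher, since Hist1h2ad was no longer tested. The slide row as a block, with WT replicate 2 as the WT array of that row, gave 2 lower genes of Hist1, 0 higher genes of Hist2 and 0 of Hist3, and the cause was not tested. Without a filter the median log2 fold change of all genes was 0.12. The replicate block gave 23 higher and 7 lower members. Over all genes, deviations of same-numbered arrays from their group means correlated at 0.01, 0.04 and 0.08, and not every array correlated best with its own number, so the numbers were not used as pairs. Depth has no counterpart here, and the dimmest genes, such as Hist1h2ad in WT cells, are limited by the signal over background.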
